A study of Saccharomyces cerevisiae with 8 samples.

Results

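The phosphate regulon is the set of genes that Saccharomyces cerevisiae uses to take up, release and store inorganic phosphate. The description below covers 10 genes of it, chosen by name: the phosphate transporters PHO84 (YML123C) and PHO89 (YBR296C), the glycerophosphoinositol transporter GIT1 (YCR098C), the phosphatases PHO5 (YBR093C), PHO8 (YDR481C) and PHM8 (YER037W), the regulator SPL2 (YHR136C) and the polyphosphate synthesis genes VTC1 (YER072W), VTC3 (YPL019C) and VTC4 (YJL012C). They were chosen with earlier results of these data known. Each was read through the probe sets that the platform annotation gives to its symbol. All 10 were found among 5656 genes with a probe set, and all 10 were among the 5475 genes tested.

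The arrays hold polyadenylated RNA of diploid cells of the SK1 background, a fast sporulating strain. The strains were mre11delta, rad50delta, spo11Y135F and wild type. The first 2 carry deletions of 2 subunits of the complex that is needed for meiotic DNA breaks to form and that processes them. In spo11Y135F the break-forming enzyme lacks its catalytic tyrosine. Each strain was measured at 4 h in sporulation medium, which the labels place in meiotic prophase, and at 0 h, in cells grown in presporulation medium on acetate and called premeiotic. The ingredients that the labels list for sporulation medium are acetate, amino acids and an antifoam, with no phosphate salt. There was 1 array per strain and time, 8 in all, so that a value of 1 strain at 1 time has no replicate. The strains served as the 4 replicates of the comparison of 4 h with 0 h, and nothing in the labels says which cultures were grown together.

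When phosphate is scarce, the kinase Pho85 with its cyclin Pho80 is held back by the inhibitor Pho81, and the transcription factor Pho4 then enters the nucleus and acts with Pho2 on its target genes. The targets raise high-affinity uptake at the plasma membrane, secrete acid phosphatase that frees phosphate outside the cell, and build the vacuolar store of polyphosphate. PHM8 and GIT1 also draw phosphate from other sources, PHM8 from nucleotides and GIT1 from breakdown products of phospholipids.

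RNA was extracted with Trizol for 3 arrays, which were both arrays labelled mre11delta and wild type at 0 h, and with RNeasy columns for the other 5. At 0 h the extraction method therefore separates the same arrays as the pair of rad50delta and spo11Y135F against the pair of mre11delta and wild type, and the 2 cannot be told apart. The RAD50 probe set of rad50delta read 3.4 (4 h) and 0.6 (0 h), while the other 6 arrays read from 88.4 to 758.2. MRE11 read 108.0 (4 h) and 84.0 (0 h) in the strain labelled mre11delta, inside the range of 45.0 to 192.4 on the other arrays, so that each direction given for it below rests on the label. All 8 markers of meiotic prophase chosen for this work, IME2 and DMC1 among them, were higher at 4 h in each of the 4 strains and passed the test, with a summed signal of 8241 to 15574 at 4 h and of 124.1 to 582.6 at 0 h. Of 4 mating-type and HO genes that a/alpha diploids repress, called haploid-specific below, 2 rose over time, STE3 and MFA1. STE2 and HO did not pass. The summed signal was 636.5 to 1283 at 4 h and 93.3 to 152.8 at 0 h. MFA1, whose probe set is of a type shared between related sequences, carried most of the sum at 4 h. In RNA of whole cultures, fewer cells of a kind and less of an RNA per cell cannot be told apart.

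Signals are given on the authors' linear MAS5 scale, without further scaling. A level of 21, 3 times the pseudocount of 7 that was added before taking log2, was used as a floor for the mean signal of a tested gene. Log2 changes are on the scale of log2(signal + 7), which understates the changes of weak genes. Array medians ran from 97.3 to 196.4, so a difference between arrays can be shifted by their scaling, and directions were checked after median centring and after quantile normalization. Signals of different probe sets do not order the genes by abundance. They are compared only within a gene, apart from the marker sums, in which the brightest probe sets weigh most.

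PHO84 encodes the main high-affinity phosphate transporter. At 4 h its signal was 1008 in the strain labelled mre11delta, 6816 in rad50delta, 3888 in spo11Y135F and 3573 in wild type, and at 0 h it was 71.8 in the strain labelled mre11delta, 6218 in rad50delta, 7162 in spo11Y135F and 80.3 in wild type. At 0 h the lower of the 2 high arrays was 77.4-fold above the higher of the 2 low ones, with nothing between. The sodium-coupled transporter PHO89 split in the same way. Its signal at 4 h was 2629.7 in the strain labelled mre11delta, 5309 in rad50delta, 1994 in spo11Y135F and 4243 in wild type, and at 0 h it was 76.7 in the strain labelled mre11delta, 3256 in rad50delta, 4709 in spo11Y135F and 75.5 in wild type. GIT1, which imports glycerophosphoinositol, was weaker, with a signal at 4 h of 52.3 in the strain labelled mre11delta, 229.8 in rad50delta, 52.8 in spo11Y135F and 48.8 in wild type. At 0 h it had 8.3 in the strain labelled mre11delta, 41.5 in rad50delta, 156.1 in spo11Y135F and 16.8 in wild type. The 2 lowest GIT1 values, those of the strain labelled mre11delta and of wild type at 0 h, lay below the floor, so folds against them depend on the pseudocount.

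**Figure D1:**
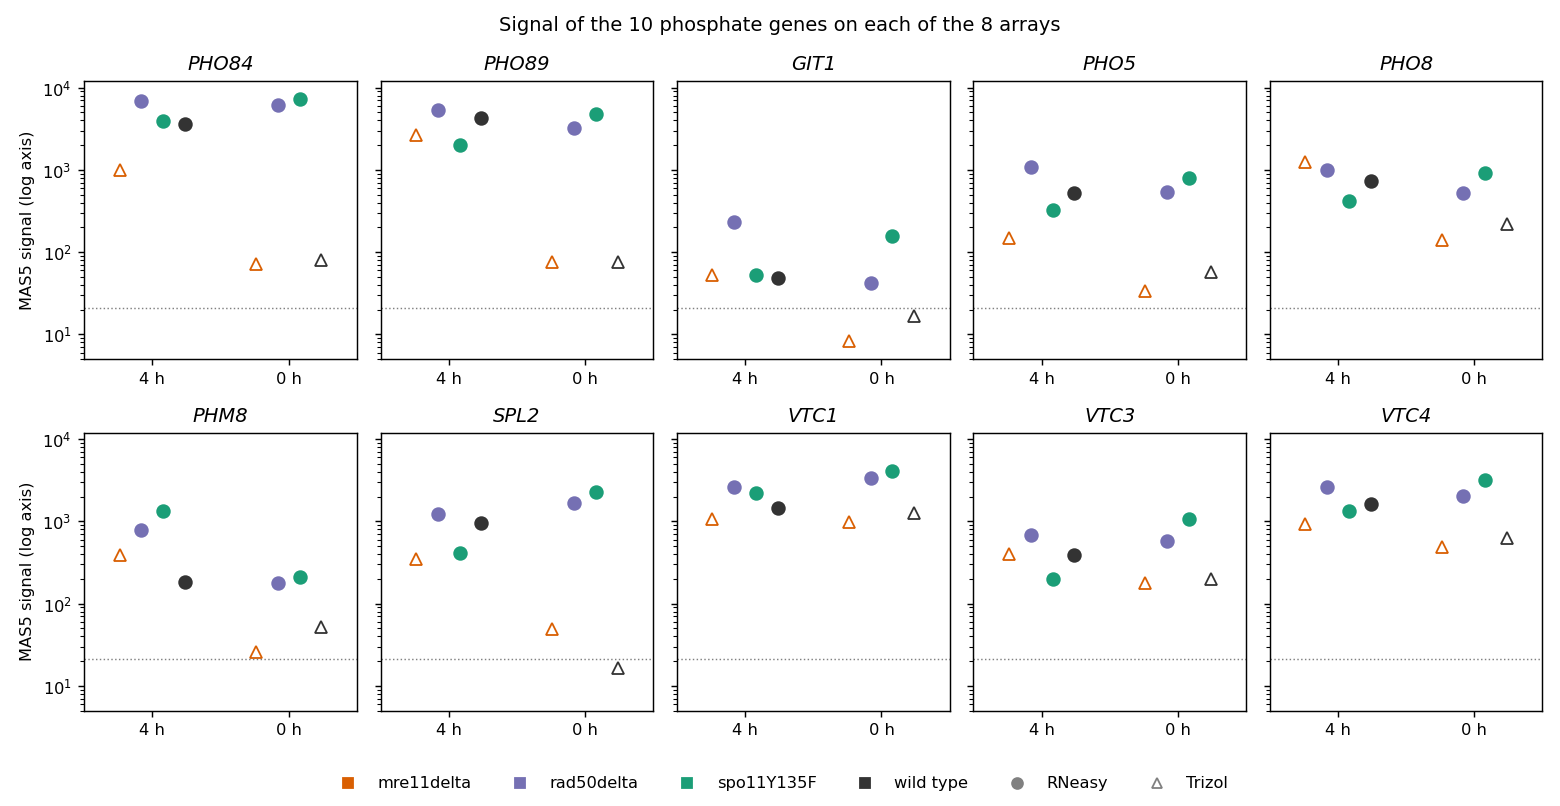
MAS5 signal (log axis) of the 10 phosphate genes on the 8 arrays, with 4 h on the left and 0 h on the right of each panel. Points are single arrays, coloured by strain, filled circles mark RNeasy and open triangles Trizol extraction, and the dotted line is the floor of 21. At 0 h both filled circles lie above both triangles in all 10 panels.

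Among the phosphatases, PHO5, the repressible secreted acid phosphatase, had a signal at 4 h of 148.3 in the strain labelled mre11delta, 1074 in rad50delta, 324.8 in spo11Y135F and 523.0 in wild type. At 0 h it had 33.6 in the strain labelled mre11delta, 534.0 in rad50delta, 794.9 in spo11Y135F and 57.4 in wild type. The spread among the strains at 0 h was thus of the same form as that of the transporters. The vacuolar alkaline phosphatase PHO8 had, at 4 h, 1229.7 in the strain labelled mre11delta, 988.5 in rad50delta, 415.9 in spo11Y135F and 738.2 in wild type. At 0 h it had 138.8 in the strain labelled mre11delta, 517.3 in rad50delta, 918.1 in spo11Y135F and 219.0 in wild type. Both PHO5 and PHO8 were thus higher at 4 h in every strain but spo11Y135F. PHM8, a phosphatase that acts on lysophosphatidic acid and on nucleotides, had, at 4 h, 389.8 in the strain labelled mre11delta, 786.8 in rad50delta, 1319.9 in spo11Y135F and 184.1 in wild type. At 0 h it had 25.6 in the strain labelled mre11delta, 178.6 in rad50delta, 209.7 in spo11Y135F and 51.6 in wild type. It was the 1 gene of the 10 that was higher at 4 h in all 4 strains, against 21.9% of all tested genes. At 4 h its highest signal was that of spo11Y135F and its lowest that of wild type.

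SPL2, which restrains low-affinity phosphate uptake, had a signal of 343.9 at 4 h in the strain labelled mre11delta, 1227 in rad50delta, 416.7 in spo11Y135F and 940.8 in wild type. At 0 h it had 48.7 in the strain labelled mre11delta, 1681 in rad50delta, 2301 in spo11Y135F and 16.3 in wild type, the last of them below the floor. The polyphosphate genes, whose products form a complex in the vacuolar membrane that makes polyphosphate from ATP, spread less. VTC1, a small subunit, had 1064.5 in the strain labelled mre11delta, 2615 in rad50delta, 2206.5 in spo11Y135F and 1469 in wild type at 4 h. Its signal at 0 h was 990.5 in the strain labelled mre11delta, 3390.6 in rad50delta, 4076 in spo11Y135F and 1256 in wild type, so that within a strain it moved by less than 2-fold. VTC3, a larger subunit, had 398.1 in the strain labelled mre11delta, 687.6 in rad50delta, 200.9 in spo11Y135F and 384.5 in wild type at 4 h. Its signal at 0 h was 176.1 in the strain labelled mre11delta, 569.1 in rad50delta, 1079 in spo11Y135F and 200.9 in wild type. Both genes were above the floor on every array.

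VTC4, the catalytic subunit, had 928.4 in the strain labelled mre11delta, 2634.5 in rad50delta, 1321 in spo11Y135F and 1619 in wild type at 4 h. Its signal at 0 h was 481.4 in the strain labelled mre11delta, 2058 in rad50delta, 3210.4 in spo11Y135F and 625.1 in wild type. VTC4 has a further plain probe set, which had 1508 in the strain labelled mre11delta, 2519.7 in rad50delta, 1419 in spo11Y135F and 1507 in wild type at 4 h, and 352.3 in the strain labelled mre11delta, 1584 in rad50delta, 2341.5 in spo11Y135F and 398.1 in wild type at 0 h. Both probe sets gave a higher signal at 4 h in every strain but spo11Y135F, while the log2 change in the strain labelled mre11delta was 0.94 by the first and 2.08 by the further one.

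The first comparison asked which of the genes differed between 4 h and 0 h over the 4 strains. PHM8 rose by 2.51 ± 0.55 in log2 (SE, n = 4 strains) and PHO89 by 2.53 ± 0.79. These were 2 of the 10 genes, or 2 rises against a background of 10.6% of all tested genes, and 0 of the 10 fell, against 4.02%. The adjusted p was 0.00307 for PHM8 and 0.0345 for PHO89 (limma with strain as block). At an unadjusted p below 0.05 the rises numbered 3, with PHO84 at 2.07 ± 0.73 (limma, adjusted p = 0.0605), and the falls 0. The share of all genes at that unadjusted threshold was not counted. The median log2 change of the 10 genes was 1.16, and that of all tested genes 0.19. Changes below the threshold were 1.28 ± 0.85 for SPL2, 1.18 ± 0.64 for PHO5, 1.15 ± 0.64 for PHO8, 1.01 ± 0.58 for GIT1, 0.34 ± 0.54 for VTC4, -0.01 ± 0.63 for VTC3 and -0.23 ± 0.46 for VTC1.

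The PHM8 call was kept under all 15 alternatives, with changes from 2.10 to 2.77 and adjusted p from 0.00118 to 0.0359. The PHO89 call was kept under 6 of 15 and was lost under either other scaling, with changes of 2.13 after median centring (limma, adjusted p = 0.250) and 2.31 after quantile normalization (adjusted p = 0.227). The count of rises depended on single strains. It was 7 of the 10 without spo11Y135F, against 11.6% of all genes, 3 without rad50delta, against 6.39%, 1 without wild type, against 5.99%, and 1 without the strain labelled mre11delta, against 8.38%. Without spo11Y135F the rises were 3.79 ± 0.64 for PHO89, 3.06 ± 0.64 for PHO84, 2.52 ± 0.68 for SPL2, 2.47 ± 0.65 for PHM8, 1.99 ± 0.66 for PHO5, 1.91 ± 0.68 for PHO8 and 1.82 ± 0.64 for GIT1 (SE, n = 3 strains). None of the 3 VTC genes passed there, with the largest change that of VTC4 at 0.89 ± 0.62 (limma, adjusted p = 0.376).

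Within single strains, for which there is no test, the genes went different ways. A 2-fold difference here is 1 or more on the log2(signal + 7) scale. In wild type 8 of the 10 were at least 2-fold higher at 4 h, against 15.5% of tested genes, and 0 were at least 2-fold lower, against 31.1%. SPL2, PHO89 and PHO84 had log2 changes there of 5.35, 5.69 and 5.36, and wild type changed its extraction method between the times. The SPL2 change starts from a signal below the floor, so its size depends on the pseudocount. In the strain labelled mre11delta, extracted with Trizol at both times, 8 were at least 2-fold higher, against 40.6%, and 0 at least 2-fold lower, against 10%. With median centring and quantile normalization the number at least 2-fold higher was 7 and 6 there, against 18.0% and 19.7% of tested genes, and 9 and 9 in wild type, against 20.7% and 22.2%. The largest log2 changes in the strain labelled mre11delta were 4.98 for PHO89, 3.69 for PHO84 and 3.61 for PHM8. The median change of the 10 was 1.71 in wild type, where that of all genes was -0.37, and 2.30 in the strain labelled mre11delta, where that of all genes was 0.74.

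In rad50delta, extracted with RNeasy at both times, 2 of the 10 were at least 2-fold higher at 4 h, GIT1 with a log2 change of 2.29 and PHM8 with 2.10, against 34.4% of tested genes. PHO5, 2.01-fold higher in signal, fell just short on the log2(signal + 7) scale. None of the 10 was at least 2-fold lower as deposited, against 5.94%, while 2 were after median centring, against 23.5%, and 1 after quantile normalization, against 19.5%. PHO84 changed by 0.13 and SPL2 by -0.45. The direction of the small changes in rad50delta depended on the scaling, with 8 of the 10 higher as deposited, 4 after median centring and 5 after quantile normalization. As deposited the median change there was 0.53 for the 10 genes and 0.61 for all tested genes, so the 10 rose no more than the typical gene. In spo11Y135F, also extracted with RNeasy at both times, 7 were at least 2-fold lower at 4 h, against 26.2%, and 1 was at least 2-fold higher, PHM8 with 2.61, against 22.7%. The other 9 genes had a lower signal at 4 h there under all 3 scalings, with log2 changes from -0.88 for PHO84 and VTC1 to -2.45 for SPL2. The median change in spo11Y135F was -1.25 for the 10 genes and -0.12 for all tested genes. For neither strain was the share of all genes higher or lower by any amount counted.

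**Figure D2:**
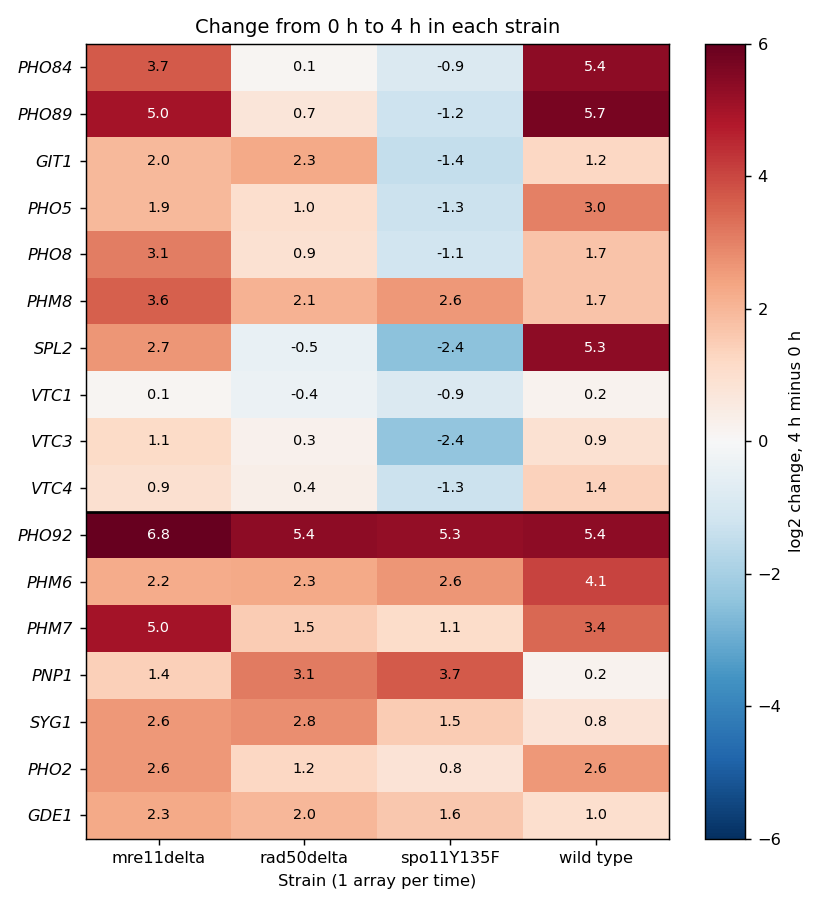
Log2 change of signal from 0 h to 4 h in each strain (columns), for the 10 phosphate genes above the line and the 7 other pathway genes that rose over time below it. Each cell is the difference of 2 arrays, with no replicate. PHM8 is positive in every column, and the column of spo11Y135F is negative for the other 9 genes above the line.

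Whether the change over time in 1 strain differed from that in the other 3 was tested directly. In spo11Y135F the log2 change of PHO89 was lower than in the others by a difference of -5.03 ± 1.20 (limma, adjusted p = 0.0140) and that of SPL2 by -4.96 ± 1.37 (adjusted p = 0.0401). These were 2 of the 10 genes, against 0.438% of all genes with a lower change there. For PHO84 the difference was -3.94 ± 1.17 (adjusted p = 0.0693). For PHM8 it was 0.15, with a 95% interval of -2.48 to 2.77. On the deposited scale the median difference of the tested genes was -0.41. With median centring or quantile normalization 0 genes of the whole array passed this test, with PHO89 at -4.61 and -4.99 (limma, adjusted p = 0.351 and 0.382) and SPL2 at -4.55 and -4.58 (adjusted p = 0.372 and 0.390).

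The 4 h array of spo11Y135F also had the lowest summed signal of the meiotic prophase markers at that time, 8241, and the highest of the spore wall markers, 5898, nearly all of it CDA1. It was also highest for the haploid-specific markers, at 1283 against 636.5 to 971.4 in the others, most of it from MFA1. For the vegetative division markers it was highest too, at 228.1 against 52.2 to 177.5. Taken singly, all prophase markers but IME2 were lowest there. All spore wall markers but SPS100 and all haploid-specific markers but STE2 were highest, while SPS100 and STE2 were lowest. Of the vegetative division markers CLB2 and SWI5 were highest, and CLN2 and CHS2 were not. The part of these markers in the result was not tested. For the other strains 0 of the 10 genes passed, with 0.493% of genes called in either direction for the strain labelled mre11delta, 0.00% for rad50delta and 0.00% for wild type. At an unadjusted p below 0.05 these counts were 1, 0 and 2. The share of all genes at that looser threshold was not counted, and the shares above do not apply to it. In wild type the differences were nonetheless of similar size with the opposite sign, at 5.43 ± 1.86 for SPL2, 4.38 ± 1.71 for PHO84 and 4.21 ± 2.13 for PHO89 (limma, adjusted p = 0.704 for each). For each gene the differences of the 4 strains cancel out, so a low value in 1 strain forces higher ones elsewhere. The opposite sign is thus partly fixed in advance. Each of these tests sets the single pair of arrays of 1 strain against 3 pairs and assumes that it varies like them.

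**Figure D3:**
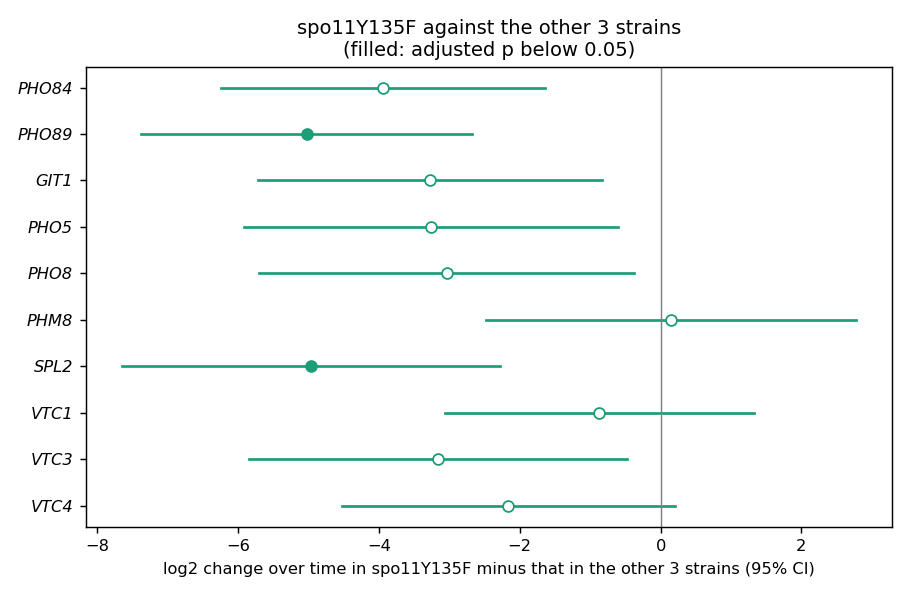
Difference between the log2 change over time in spo11Y135F and that in the other 3 strains, for the 10 phosphate genes, with 95% intervals from limma that are not adjusted for multiple tests. Filled points passed the adjusted threshold, PHO89 at -5.03 and SPL2 at -4.96, and PHM8 lies at 0.15.

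The strains differed most at 0 h. The comparison of rad50delta and spo11Y135F with the strain labelled mre11delta and wild type at 0 h was chosen after the data were seen, and it is also the comparison of RNeasy with Trizol. Since the 10 genes too were chosen with earlier results of these data known, the counts and p-values below describe the split and are no independent support for it. All 10 genes were higher in rad50delta and spo11Y135F and passed the test, and 0 were lower, against 15.7% of all genes called higher and 18.0% called lower. Both arrays of rad50delta and spo11Y135F lay above both of the others for all 10 genes, as they did for 32.8% of all genes. PHO84 differed by 6.33 ± 0.32 in log2, or 80.5-fold (SE, n = 2 strains each, limma, adjusted p = 9.16e-07), which was the largest of the 5475 differences. SPL2 differed by 5.78 ± 0.43 (adjusted p = 5.88e-06), the second largest, and PHO89 by 5.56 ± 0.34 (adjusted p = 5.02e-06), the fourth. The SPL2 signal of wild type lay below the floor, and its difference was 6.07 with a pseudocount of 1 and 5.44 with 16. PHO5 followed with 3.69 ± 0.36.

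The other 6 genes differed by less. GIT1 differed by 2.22 ± 0.50, VTC4 by 2.21 ± 0.32, PHM8 by 2.20 ± 0.36, VTC3 by 2.02 ± 0.38, PHO8 by 1.94 ± 0.39 and VTC1 by 1.73 ± 0.25. The median difference was 2.22 for the 10 genes and -0.01 for all genes. All 10 calls were kept under the 5 alternatives of scaling, pseudocount and trend, with an adjusted p of at most 0.0250. Some markers also differed at 0 h. Of the 8 meiotic prophase markers IME2, DMC1 and REC8 were higher in rad50delta and spo11Y135F and RED1 was lower, with a summed signal of 368.9 in rad50delta and 582.6 in spo11Y135F, against 124.1 in the strain labelled mre11delta and 186.8 in wild type. Of the 4 spore wall markers SPS100 was higher, with sums of 274.1 in rad50delta and 160.1 in spo11Y135F, against 51.0 in the strain labelled mre11delta and 73.4 in wild type. Of the 4 vegetative division markers CLN2 was lower, with sums of 207.6 in rad50delta and 286.5 in spo11Y135F, against 431.9 in the strain labelled mre11delta and 514.3 in wild type. None of the 4 haploid-specific markers passed, with 152.8 in rad50delta and 119.5 in spo11Y135F, against 93.3 in the strain labelled mre11delta and 114.4 in wild type. The part of these in the difference was not tested.

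**Figure D4:**
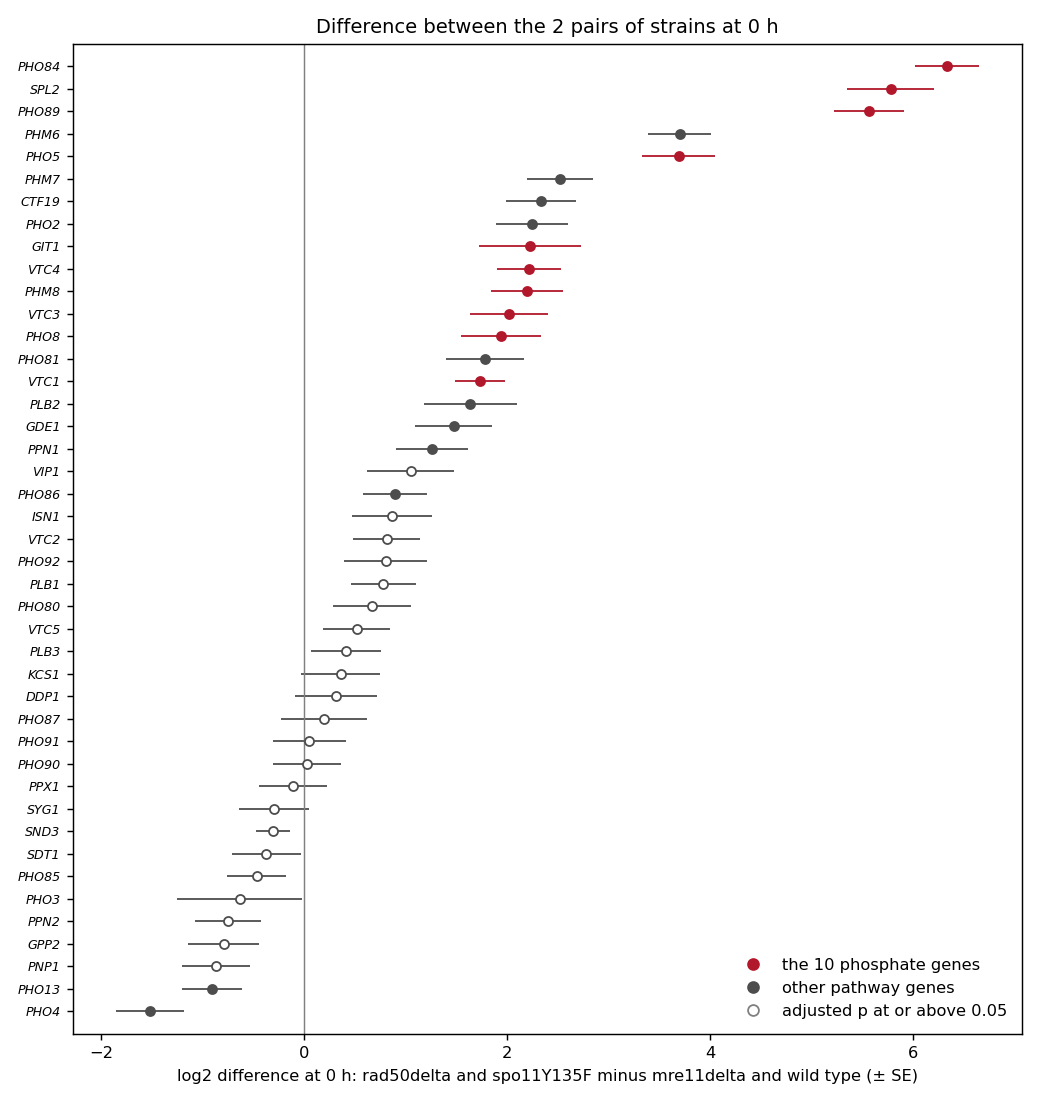
Log2 difference at 0 h of rad50delta and spo11Y135F (both RNeasy) minus the strain labelled mre11delta and wild type (both Trizol), with limma's SE, for the 10 phosphate genes and 33 other pathway genes. Filled points passed the adjusted threshold. PHO84, SPL2 and PHO89 stand at 5.56 or more, PHO5 and PHM6 near 3.7, and PHO4 is lowest at -1.52.

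By 4 h the strains lay closer together. The highest over the lowest signal of PHO84 among the 4 strains was 6.76-fold at 4 h and 99.8-fold at 0 h, that of SPL2 3.57-fold at 4 h and 141-fold at 0 h, and that of PHO89 2.66-fold at 4 h and 62.4-fold at 0 h. The 141-fold of SPL2 is taken over the wild type signal of 16.3, which lies below the floor. On the log2(signal + 7) scale the range was narrower at 4 h for 9 of the 10 genes, against 31.1% of all genes. PHM8 was the exception on that scale, while its plain ratio was 7.17-fold at 4 h and 8.19-fold at 0 h. The strain labelled mre11delta, the only Trizol array at 4 h, was lowest then for 5 of the 10 genes, PHO84 (3.55-fold below the next strain), PHO5 (2.19-fold below), SPL2, VTC1 and VTC4, and highest for PHO8. By the further VTC4 probe set that strain was not lowest, at 1508 against 1419 in spo11Y135F.

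A list of 36 other genes, of which 33 had a probe set of their own, holds mostly regulators of phosphate handling, low-affinity transporters, polyphosphatases, and enzymes of phospholipid and nucleotide breakdown, beside a few other targets such as PHM6. Over time 7 of the 33 rose and 0 fell as deposited, against the same 10.6% and 4.02%, and 4 rose under each other scaling, against 7.47% after median centring and 7.63% after quantile normalization. The rises numbered 3 without wild type, against 5.99% of all genes, and 4 without the strain labelled mre11delta, against 8.38%. They numbered 3 without rad50delta, against 6.39%, and 5 without spo11Y135F, against 11.6%. PHO92 and PHM6 were among them each time. PLB1 fell without the strain labelled mre11delta, where 4.82% of all genes fell, and PPN2 without spo11Y135F, where 4.58% did. Within the RNeasy pairs 8 rose and 2 fell, PLB1 and CTF19, where 859 of the 5475 tested genes rose and 355 fell. Of 15 alternatives the rise was kept in 15 for PHO92, 14 for PHM6, 11 for SYG1 and PNP1, 10 for PHM7, 9 for GDE1 and 7 for PHO2. PHO92, a reader of methylated adenosine in meiotic RNA that also carries a PHO name, rose by 5.70 ± 0.54 (limma, adjusted p = 2.67e-07). PHM6, a phosphate-responsive gene of unknown function, rose by 2.80 ± 0.55 (adjusted p = 0.00130), and PHM7 by 2.76 ± 0.63. The size for PHM6 depends on the pseudocount, since its 0 h signals in the strain labelled mre11delta and wild type lay below the floor. For PHM7 the rise was lost with both other scalings, with extraction as a covariate, within the RNeasy pairs and without wild type. In the breakdown group, 2 of 7 rose, the purine nucleoside phosphorylase PNP1 by 2.12 ± 0.62 and the glycerophosphodiesterase GDE1 by 1.72 ± 0.56. The PNP1 rise was lost with both other scalings and without rad50delta or spo11Y135F, and the GDE1 rise whichever strain was left out. All 7 genes that rose as deposited were higher at 4 h in all 4 strains, as PHM8 was, and so were PHO91 and VTC5. Of all tested genes 21.9% were. In spo11Y135F the log2 changes of the 7 ran from 0.83 for PHO2 to 5.29 for PHO92. They were 2.63 for PHM6, 3.70 for PNP1 and 1.60 for GDE1.

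Among 9 regulators, PHO2, the homeodomain partner of Pho4, rose by 1.82 ± 0.54 (limma, adjusted p = 0.0250), and PHO92 was the other rise. The PHO2 rise was lost with both other scalings and without any 1 of wild type, rad50delta and the strain labelled mre11delta. The background to each of these small groups is the same 10.6% of all genes. PHO4 changed by 1.13 ± 0.58, PHO81 by 1.06 ± 0.60 and the inositol hexakisphosphate kinase KCS1 by 0.80 ± 0.60, all short of the threshold. Of 6 transport genes 1 rose, SYG1, by 1.93 ± 0.58, a rise lost without any 1 of the same 3 strains, while the vacuolar transporter PHO91 changed by 0.78 ± 0.57. None of 5 polyphosphate genes passed, with VTC5 at 1.44 ± 0.53 and the polyphosphatase PPN2 at -1.26 ± 0.67. Of the phospholipases, PLB1 changed by -1.24 ± 0.64 and PLB3 by 1.15 ± 0.57, and neither passed.

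At 0 h 9 of the 33 were higher in rad50delta and spo11Y135F than in the strain labelled mre11delta and wild type, and 2 were lower, against the same 15.7% and 18.0%. With either other scaling the counts were 13 higher and 5 lower, against 22.2% and 23.7% of all genes after median centring and 23.0% and 22.4% after quantile normalization. The 9 higher as deposited include CTF19, a kinetochore gene next to VTC3. PHM6 differed by 3.70 ± 0.31, though its signals of 18.4 in the strain labelled mre11delta and 18.2 in wild type lie below the floor, so that this size depends on the pseudocount. PHM7 differed by 2.52 ± 0.32, PHO2 by 2.24 ± 0.35, PHO81 by 1.78 ± 0.38, the phospholipase PLB2 by 1.64 ± 0.46, GDE1 by 1.47 ± 0.38, the polyphosphatase PPN1 by 1.26 ± 0.35 and PHO86, which helps Pho84 leave the endoplasmic reticulum, by 0.89 ± 0.31. PHO4 was lower, by a difference of -1.52 ± 0.33 (limma, adjusted p = 0.00437), as was the phosphatase gene PHO13, by -0.91 ± 0.30. PHO3, the constitutive acid phosphatase gene next to PHO5 and close to it in sequence, differed by -0.64 ± 0.61, though the probes of such relatives can share signal. PHO3 was picked out after its values were seen. CTF19 differed by 2.33 ± 0.35 beside 2.02 ± 0.38 for its neighbour VTC3. In spo11Y135F CTF19 read 1.7 at 4 h, below the floor, and 139.9 at 0 h, and VTC3 was also lower at 4 h there. PHO11 and PHO12 share 1 probe set and were not used.

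Across the 8 arrays, the tested genes whose profile was most like that of PHO84, by Pearson's r of log2(signal + 7), were PHO5 (0.968), the hexose transporter gene HXT2 (0.968), SPL2 (0.964), PHO89 (0.961) and DOT6 (0.961). For PHM8 they were ATG32 (0.992), PIG2 (0.991), YLR225C (0.990), CRG1 (0.985), whose only probe set is of a shared type, and PDE1 (0.985), with none of the 10 genes among them. For GIT1 they were RSA1 (0.974), YAP6 (0.966), NFT1 (0.937), DBR1 (0.935) and PHO81 (0.929). Between the 10 genes r was highest for PHO5 with VTC4, at 0.978, and lowest for PHM8 with VTC3, at 0.328. These values describe 8 arrays that share strains, times and extraction methods.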

How the data were processed

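The deposited values are linear intensities, the authors' MAS5 signals of Affymetrix YG-S98 arrays, per the submitters' processing notes. The MAS5 version and the scaling between arrays were not given in the sources used here. Of 9335 probe sets, 6504 carry 1 gene and all of these were matched by gene identifier to the RefSeq table of assembly R64. A plain _at probe set was taken before other types and then the one with the highest mean. The pseudocount of 7 is the 10th percentile of the table. Genes that averaged 21 or more over the arrays were tested with limma 3.58.1 in R 4.3.3 (eBayes with trend, two-sided, Benjamini-Hochberg over 5475 genes, 0.05). The strain is the block of the time comparison because both times were measured in the same strain. The labels do not say that cultures were independent, so p-values measure only the spread seen in these arrays, and the number of arrays limits the precision. For the time comparison it is the spread of the changes among the strains, which includes the change of extraction method in wild type. Where a single strain is set against the others it is the spread among the others, and at 0 h the spread within each pair of strains. Scripts were tested on simulated data. The genes and lists were chosen with earlier results of these data known. The text names the 10 genes, the other pathway genes past the threshold or among the 8 next largest changes, those past the threshold at 0 h, and the 5 genes most like PHO84, PHM8 and GIT1. The alternatives were scaling, pseudocount, filter, trend, block, extraction as covariate, probe set choice and leaving out each strain, all listed at the outset, and the RNeasy pairs alone and the 0 h comparison, added after the data were seen.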

Additional observations from a re-analysis of the deposited data

Results flagged for a closer look

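GIT1 at 4 h in rad50delta, with a signal of 229.8, lay far from the other 3 strains at that time, which had 48.8 to 52.8. The 4 arrays of each time were checked in this way for each of the 10 genes, 20 groups in all, and chance marks about 1 in 20 groups. The change over time in spo11Y135F differed from that in the other 3 strains by -5.03 in log2 for PHO89, with -1.24 in spo11Y135F against a mean of 3.79 in the others, and by -4.96 for SPL2, with -2.45 in spo11Y135F against a mean of 2.52. PHO89 was lower at 4 h in spo11Y135F and higher in the 3 others, while SPL2 was also lower in rad50delta. What these differences rest on was not tested.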

How the results depend on the processing

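As deposited 2 of the 10 genes rose over time. The count was 1 with median centring or quantile normalization, where 409 and 418 of the 5475 tested genes rose. It was 1 with no trend (563 of all genes), with no strain block (615) and with extraction as a covariate (346). Within the RNeasy pairs (859) and with no filter (560 of 5656 genes) it was also 1. With a floor of 10 pseudocounts it was 3 (582 of 4853 genes). It ran from 1 to 7 when each strain was left out in turn. PHM8 was in each of these counts. Falls numbered 0 in every setting. From the RNeasy pairs alone (rad50delta, spo11Y135F) the change was -0.37 for PHO84, -0.27 for PHO89, -0.14 for PHO5, -0.10 for PHO8, -1.45 for SPL2 and -0.46 for VTC4, all with the sign reversed. The remaining genes kept their sign there, with -1.06 for VTC3, -0.63 for VTC1, 0.42 for GIT1 and 2.36 for PHM8. SPL2 changed by -0.08 with extraction as a covariate, and by -0.08 to 2.52 when each strain was left out. Wild type is the strain whose extraction changed, so that covariate and leaving out wild type both estimate the change from the other 3 strains. VTC4 changed by -0.06 with median centring, and VTC3 by -0.40 to 0.78 when each strain was left out. The 2 genes whose change in spo11Y135F differed became 0 after median centring and 0 after quantile normalization. The 10 genes higher in rad50delta and spo11Y135F at 0 h stayed 10 under its 5 alternatives. The cause of these shifts was not tested. With 1 array per strain and time, no strain's own level carries an error.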
